A study of Mus musculus with 12 samples.

Results

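The genes of the interleukin, chemokine and tumour necrosis factor (TNF) families were examined for meiotic recombination hotspots in mouse testis. Members were the protein-coding RefSeq genes whose symbol begins with Il, Ccl, Cxcl, Ccr or Cxcr and a digit, or with Tnfsf, Tnfrsf or Tnfaip. The rule took 177 of 21627 protein-coding genes on the autosomes and X. Coordinates before 3 Mb, where neither list has a hotspot, are given for 108 coding genes, the chemokine gene Ccl21c among them, so 176 of 21519 genes were used. The members comprised 38 interleukin ligands, 45 interleukin receptors and associated proteins, 36 chemokines, 17 chemokine receptors, 12 Tnfsf ligands, 20 Tnfrsf receptors and 8 Tnfaip genes. The prefixes also bring in genes that are not immune messengers or their receptors, such as Il1rapl1 and Il1rapl2, synaptic adhesion proteins of neurons, and leave out Tnf and Lta. The genes were taken by name, but the hotspot at Tnfaip3 was chosen by its strengths in these 2 lists, so its values are a description.

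DMC1 single-stranded DNA sequencing had been carried out on whole testis of adult males, with 2 samples of wild type C57BL/6JCrl (B6) mice and 2 of mice carrying the Ankrd31 allele tm1Atot, labelled as knockouts. The sources used here do not give the strain background of the knockout mice, so genotype and strain cannot be told apart. The deposited data are 1 hotspot list for each genotype, with no column for the separate samples, so no difference between genotypes has a replicate check. Whole testis holds many cell types and DMC1 marks only cells in early meiosis, so fewer such cells and fewer breaks in each cell cannot be told apart.

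The wild type list held 13480 hotspots with 4376692 reads and the knockout list 22034 hotspots with 4203380 reads. The authors' estimate of background was 4.39% of the reads in the wild type list and 6.03% in the knockout list. The strength of a hotspot is its read count minus this background, and its median was 152 in the wild type list and 105 in the knockout list. Intervals beside single strengths are exact 95% counting intervals and cover counting error only.

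In meiosis, programmed double-strand breaks start recombination, and the recombinase DMC1 coats the single-stranded DNA at each break, so that sequencing this DNA maps the breaks. In mice the histone methyltransferase PRDM9 directs breaks to its binding sites, mostly away from promoters, whereas without PRDM9 breaks occur at promoters and other sites with H3K4me3. ANKRD31 is a partner of the break-forming machinery. Cytokines, chemokines and TNF ligands are secreted or membrane-bound messengers of the immune system. They act through surface receptors whose signals reach the nucleus by way of the JAK-STAT, NF-kB and other pathways, and Tnfaip3 encodes A20, a ubiquitin-editing enzyme that restrains NF-kB.

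The sequences of 5 promoters are shown because a hotspot lay at some of these starts and not at others. Each run is the 250 bases before the annotated start, 5′ to 3′ on the gene's own strand, from RefSeq on GRCm38.p6, and capitals mark CpG dinucleotides. Tnfaip3 (chr10:19015411-19015660, minus strand), Il13ra1 (chrX:36111858-36112107, plus strand) and Il23r (chr6:67491856-67492105, minus strand) had the 3 strongest knockout hotspots at a start given by the promoter table. Il2 (chr3:37125955-37126204, minus strand) had a weak one, and Ccl3 (chr11:83649379-83649628, minus strand) had none. Il2 and Ccl3 were picked as contrasts after the values had been seen.
Tnfaip3: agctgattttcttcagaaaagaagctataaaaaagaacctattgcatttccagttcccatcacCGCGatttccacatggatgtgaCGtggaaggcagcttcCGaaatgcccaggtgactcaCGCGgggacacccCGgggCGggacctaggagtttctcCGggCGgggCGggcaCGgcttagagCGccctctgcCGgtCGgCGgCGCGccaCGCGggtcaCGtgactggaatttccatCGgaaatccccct
Il13ra1: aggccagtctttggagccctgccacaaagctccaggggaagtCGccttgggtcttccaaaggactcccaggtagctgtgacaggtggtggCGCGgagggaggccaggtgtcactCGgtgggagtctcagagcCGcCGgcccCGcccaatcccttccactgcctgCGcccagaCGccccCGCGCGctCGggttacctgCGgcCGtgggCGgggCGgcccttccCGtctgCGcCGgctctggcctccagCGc
Il23r: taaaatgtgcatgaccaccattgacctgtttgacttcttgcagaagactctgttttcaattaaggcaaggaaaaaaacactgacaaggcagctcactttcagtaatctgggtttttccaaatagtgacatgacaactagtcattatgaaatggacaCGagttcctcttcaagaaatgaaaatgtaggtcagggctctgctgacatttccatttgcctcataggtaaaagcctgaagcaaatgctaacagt
Il2: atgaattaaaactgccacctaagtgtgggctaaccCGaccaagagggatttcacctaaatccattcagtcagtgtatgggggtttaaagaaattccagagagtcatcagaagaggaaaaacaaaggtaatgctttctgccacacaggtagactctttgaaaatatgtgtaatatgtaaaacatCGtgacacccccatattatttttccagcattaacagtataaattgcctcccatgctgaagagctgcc
Ccl3: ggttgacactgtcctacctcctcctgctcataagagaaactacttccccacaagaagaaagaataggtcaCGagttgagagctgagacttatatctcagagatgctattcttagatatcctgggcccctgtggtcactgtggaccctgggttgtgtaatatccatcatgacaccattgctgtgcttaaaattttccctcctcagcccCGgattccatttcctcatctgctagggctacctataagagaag
The printed runs of Tnfaip3 and Il13ra1 hold 22 and 21 CpG dinucleotides. Those of Il23r, Il2 and Ccl3 hold 1, 2 and 2. CpG-dense and CpG-poor starts thus both occurred among the members with a knockout hotspot. However, the Il23r hotspot was centred 964 bp upstream of the start, outside the printed run, and was shared with the wild type list.

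A gene was counted as having a hotspot at an end when the centre of the hotspot lay within 1 kb of either end of the gene. In the knockout list 21 of 176 members had such a hotspot (11.9%, exact binomial 95% interval 7.54 to 17.7), whereas 27.2% of all protein-coding genes had one. A knockout-only hotspot, one with no overlapping hotspot in the wild type list, lay at an end of 17 members (9.66%, 5.73 to 15.0), against a background of 25.6%. The wild type list had a hotspot at an end of 4 members (2.27%, 0.623 to 5.72), and its background was 2.00%. The member genes thus had a lower share than all genes in the knockout list and a like share in the wild type list. Without Tnfaip3, the knockout count was 20 of 175 (11.4%).

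The shares differed between the roles. Interleukin receptors and associated proteins had a knockout hotspot at an end in 10 of 45 genes (22.2%, 11.2 to 37.1) and interleukin ligands in 3 of 38 (7.89%, 1.66 to 21.4). None of the 36 chemokines and none of the 17 chemokine receptors had one in either list. For these 53 genes together, a count of 0 allows a share of up to 5.66%. The TNF superfamily had 2 of 12 Tnfsf ligands (16.7%) and 2 of 20 Tnfrsf receptors (10%) with a knockout hotspot. The Tnfaip genes had 4 of 8 (50%, 15.7 to 84.3), or 3 of 7 without Tnfaip3. The intervals of the single roles are wide, and those of the interleukin receptors and of the Tnfsf, Tnfrsf and Tnfaip genes include the background of 27.2%.

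**Figure D1:**
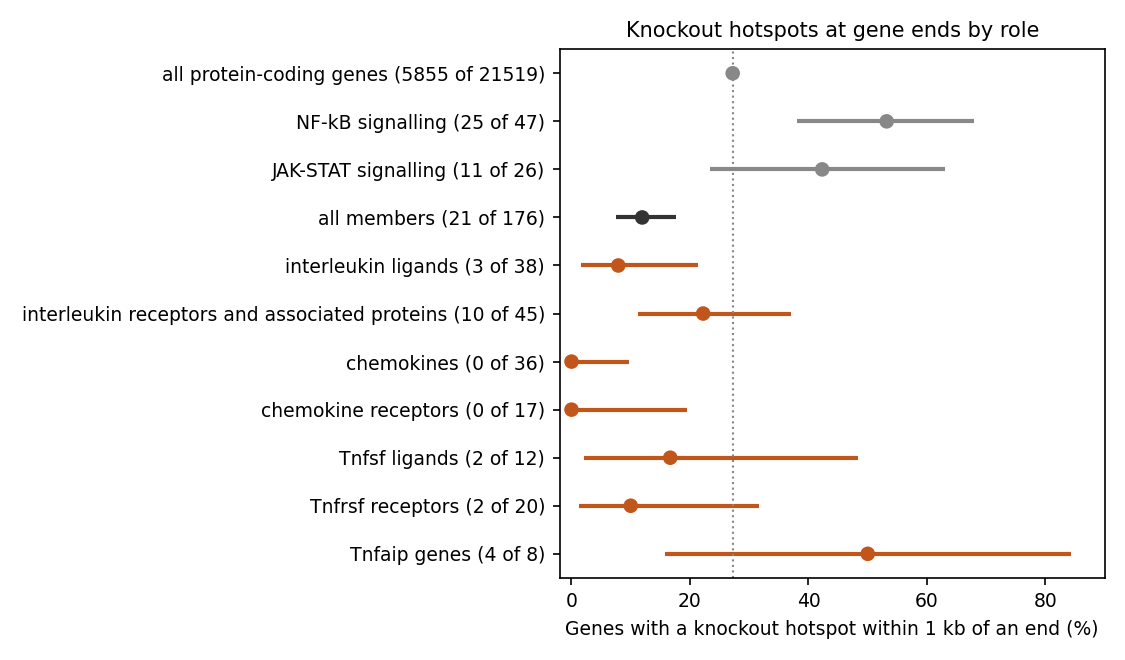
Percent of genes with a knockout list hotspot centred within 1 kb of an end, by role, with the 2 signalling lists and all protein-coding genes in grey. Points are shares, horizontal bars are exact binomial 95% intervals, and the dotted line is the share of all protein-coding genes. Chemokines and chemokine receptors lie at 0, and all members together at 11.9%, left of the line at 27.2%.

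The 21 members shared 20 knockout hotspots, because 1 hotspot lay at the common end of Tnfsf13 and Tnfsfm13. Of these hotspots, 16 were knockout-only (80%, 56.3 to 94.3) and 4 were shared with the wild type list, beside 93.0% knockout-only among the 5290 knockout hotspots at ends of all protein-coding genes. The median strength of the 20 was 76.5 (quartiles 40.75 and 130.25), and that of the 5290 was 97 (quartiles 64 and 162). The interval of the members' median, 41 to 128, includes 97. In 13 members the hotspot was at the annotated start, with a median distance of 108 bp (range 12 to 964). In 4 it was at the far end, and in Tnfaip8, Il17ra, Il7 and Il10rb the strand was not determined. Most member hotspots with a known strand were thus at the start.

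Among the interleukin ligands, 3 had such a hotspot, all knockout-only, with strengths on both sides of the list median of 105. Il17d, a ligand of the interleukin 17 family on chromosome 14, had a strength of 128 (106 to 153) with the centre 627 bp inside the gene from its start. Il7, a growth factor of developing lymphocytes on chromosome 3, had a strength of 55 (40.4 to 72.6). Il2, a growth factor of T cells on chromosome 3, had a strength of 41 (27.6 to 57.5), centred 232 bp inside the gene, beside the CpG-poor promoter printed above. No interleukin ligand had a wild type hotspot at an end.

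The interleukin receptors and associated proteins held the largest number of member hotspots at ends. Il13ra1 on X, a chain of the interleukin 13 receptor, had a knockout-only hotspot (chrX:36111392-36112936) of strength 243 (213 to 276), centred 56 bp from the start. Il23r on chromosome 6, a subunit of the interleukin 23 receptor, had a strength of 92 (73.9 to 113) in the wild type list (chr6:67491943-67493599) and 189 (162 to 219) in the knockout list (chr6:67492066-67493572). Both counting intervals of Il23r lay apart, and the relative strength was 2.48-fold higher in the knockout (log2 1.31, 0.79 to 1.83). Relative strength, the scale of every log2 ratio given here, is the strength over the median of all shared hotspots on autosomes. That median was 182 for wild type and 151 for knockout hotspots. The Il23r hotspot lay upstream, 964 bp from the start in the knockout list, close to the edge of the window.

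Besides Il13ra1, 5 receptor genes with a knockout-only hotspot encode chains used by more than 1 cytokine. Other shared chains, such as Il2rg, Il2rb, Il12rb1 and Il20rb, had no hotspot at an end in either list. Il6st, which encodes gp130, the common signalling chain of the interleukin 6 family, had a strength of 124 (102 to 149), centred 205 bp inside the gene. Il1rap, the shared accessory chain of interleukin 1 receptors, had a strength of 91 (71.8 to 113), and Il17ra, a common subunit of interleukin 17 receptors, had 58 (43.0 to 76.0). Il10rb, a chain shared by the interleukin 10 receptor and related receptors, had 40 (27.4 to 55.6), and Il4ra, a chain for interleukin 4 and interleukin 13, had 37 (25.6 to 51.5). The intervals of Il17ra, Il10rb and Il4ra overlapped, so these 3 could not be ordered by strength.

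The remaining genes of the interleukin receptors and associated proteins with a knockout-only hotspot were Il17rd, Il4i1b and Il9r. Il17rd, a membrane protein of the interleukin 17 receptor family, had a strength of 117 (96.0 to 141), centred 315 bp inside the gene. Il4i1b, put in this role by its name and not a receptor gene, had a strength of 79 (60.5 to 101). The same hotspot was at the ends of Atf5, a transcription factor, and Nup62, a nuclear pore protein. Il9r, the receptor of interleukin 9, had a strength of 74 (57.0 to 94.0). The centre of its hotspot was 108 bp from the start of Il9r and 24 bp from an end of Snrnp25, which encodes a protein of the minor spliceosome.

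In the TNF superfamily the knockout hotspots at ends were all below the list median. Tnfsf13, which encodes the ligand APRIL, and Tnfsfm13, whose annotated span includes that of Tnfsf13, had the same knockout-only hotspot of strength 32 (20.7 to 46.3) at their far end. Senp3, a SUMO protease gene, ended 216 bp from the centre of that hotspot, nearer than the 709 bp of Tnfsf13. Tnfrsf11a, which encodes RANK, a receptor of osteoclast precursors, had 31 (20.2 to 44.8), 44 bp upstream of its start. Tnfrsf13c, the receptor for the B cell survival factor BAFF, had a shared hotspot at its far end. Its strength was 49 (34.9 to 66.1) in the wild type list and 66 (50.1 to 84.9) in the knockout list, and the log2 ratio of 0.70 (-0.13 to 1.55) has an interval that includes 0.

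Of the Tnfaip genes, Tnfaip3 had the strongest knockout hotspot and Tnfaip8 the next. Tnfaip8 on chromosome 18, named for its induction by TNF, had a knockout-only hotspot of strength 324 (289 to 362), centred 65 bp from an end. Tnfaip8l3, a related gene on chromosome 9, had a shared hotspot at its far end, with a strength of 106 (86.0 to 129) in the wild type list and 137 (114 to 163) in the knockout list (log2 0.64, 0.09 to 1.19). Tnfaip1, which encodes an adaptor of a cullin ubiquitin ligase, had a knockout-only hotspot of strength 40 (28.1 to 54.9), 56 bp from its start and 35 bp from an end of Ift20, an intraflagellar transport gene. Counting intervals of the 2 lists overlapped for Tnfaip8l3 and lay far apart for Tnfaip3.

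**Figure D2:**
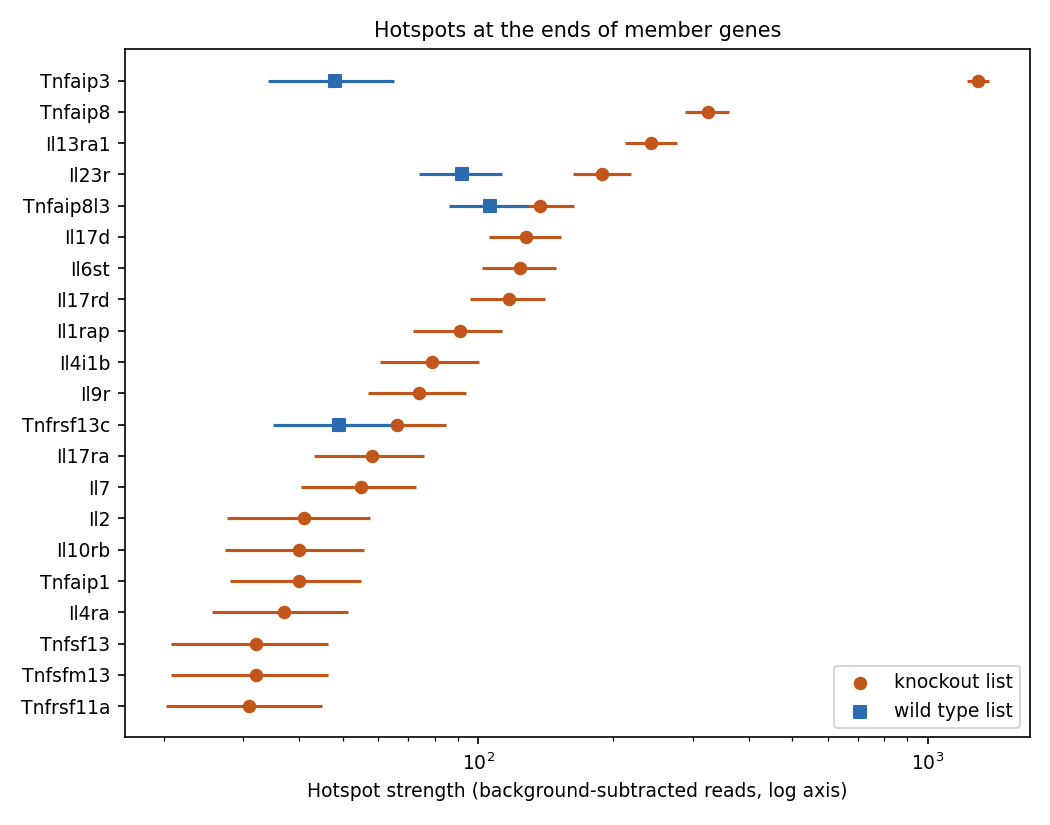
Strength of each hotspot at an end of a member gene, in background-subtracted reads on a log axis; circles are the knockout list, squares the wild type list, and bars exact 95% counting intervals. Tnfaip3 stands at 1293 in the knockout list and 48 in the wild type list, while the other members lie between 31 and 324 in the knockout list.

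In all, 5 of the 20 knockout hotspots were also at an end of a coding gene outside the group: those of Il9r, Il4i1b, Tnfaip1, Il10rb (with Ifnar2, an interferon receptor gene) and the Tnfsf13 pair. When a hotspot was counted only if no gene outside the group was nearer, 17 members kept a knockout list hotspot (9.66%) and 13 a knockout-only one (7.39%). With each hotspot given only to its nearest coding gene, 24.3% and 22.8% of all coding genes had one. This count was chosen after seeing the data. At the edge of the 1 kb window, Il23r at 964 bp was the last member inside in the knockout list, and Il20ra, a receptor subunit of the interleukin 20 family, was the first outside, with a shared hotspot of strength 77 at 1169 bp. In the wild type list the last inside was also Il23r, at 916 bp, and the first outside was Il20ra, with a strength of 109 at 1289 bp.

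Tnfaip3 lies on the minus strand of chromosome 10 (19000910 to 19015410), with its start at the higher coordinate. In the wild type list its hotspot (chr10:19014621-19015993) had 58 reads and a strength of 48 (34.0 to 65.0), at rank 12389 of 13480. In the knockout list the hotspot (chr10:19014397-19016357) had 1316 reads and a strength of 1293 (1223 to 1366), at rank 135 of 22034. Its centre was 33 bp inside the gene from the start in the knockout list and 103 bp inside in the wild type list, so both intervals span the same start. The relative strength was 32.5-fold higher in the knockout (log2 5.02, 4.50 to 5.60). This hotspot was chosen for these values, and no test was made on it.

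On the autosomes the Tnfaip3 hotspot ranked 1 of 4854 knockout hotspots at ends of coding genes, but 305 of 332 such hotspots in the wild type list. Among all 20448 autosomal knockout hotspots it ranked 38. Its log2 ratio was the highest of the 280 shared autosomal hotspots at gene ends, where the second highest was 3.81 and the median was -0.22. It thus stood among the weakest gene-end hotspots of one list and at the top of those of the other.

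Hotspots around Tnfaip3 had no such change. Within 500 kb of the gene the wild type list had 8 hotspots with a summed strength of 2671 over 13.85 kb of hotspot length, a mean of 334 each. The knockout list had 15 with a sum of 3188 over 26.3 kb, a mean of 213. The Tnfaip3 hotspot held 1.80% of the wild type sum and 40.6% of the knockout sum. Outside it the summed strength was 2623 in the wild type list and 1895 in the knockout list, so the regional excess in the knockout list was in the Tnfaip3 hotspot itself.

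The other 5 shared hotspots of the region lay outside gene ends and were all lower in relative strength in the knockout. Their median log2 ratio was -0.67 (range -0.97 to -0.09). The strongest, 322 kb on the far side of the start, went from 930 to 394, and the next, 444 kb on the side of the gene body, from 513 to 268. Those at 400 kb and 355 kb went from 486 to 236 and from 273 to 154. The one 109 kb from the start, on the side of the gene body, was 287 and 223, and its log2 ratio of -0.09 (-0.47 to 0.28) has an interval that includes 0. Thus 4 of the 5 were lower beyond counting error on this scale.

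In the same region 9 of the 15 knockout hotspots were knockout-only and 2 of the 8 wild type hotspots wild-type-only, beside 47.9% and 14.8% in the full lists. The knockout-only ones included 3 at ends of coding genes, namely Hebp2, a heme-binding protein gene (60), Arfgef3 (65), and Perp, a p53 target that encodes a desmosome protein (112). All 3 were far weaker than the Tnfaip3 hotspot. Of the others, strengths ranged from 36 to 104, and 1 lay inside Nhsl1 (104) and 1 inside Arfgef3 (88). The wild-type-only hotspots had strengths of 42, inside Nhsl1, and 92, outside coding genes.

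**Figure D3:**
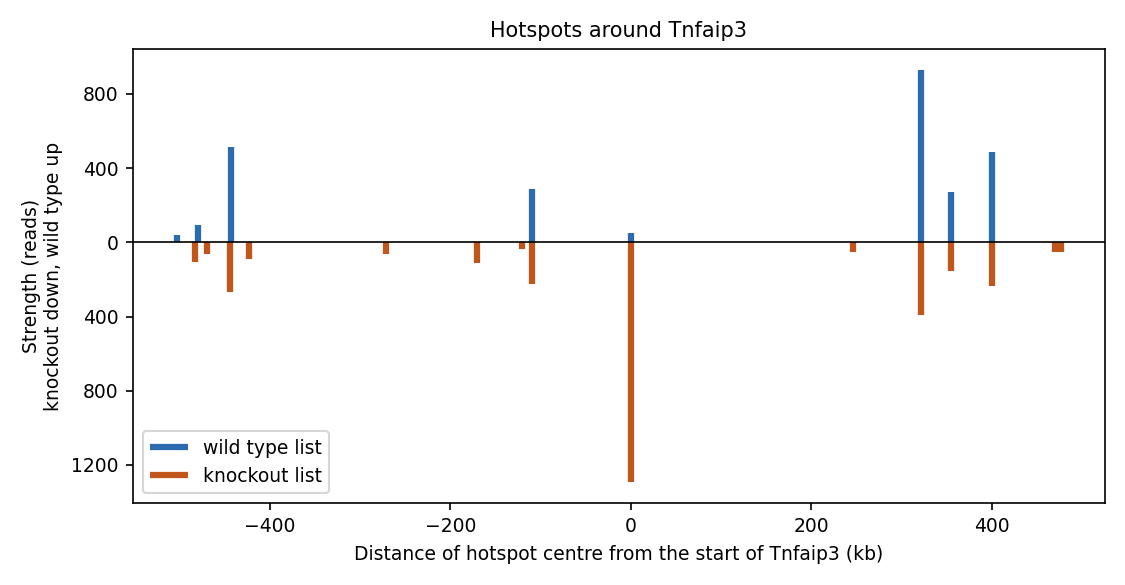
Strength (background-subtracted reads) of every hotspot within 500 kb of Tnfaip3 against the distance of its centre from the start of the gene in kb; wild type bars point up and knockout bars down. The bar at 0 is 48 in the wild type list and 1293 in the knockout list, and the other shared hotspots are taller in the wild type list.

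Hotspots inside the gene body, more than 1 kb from both ends, were found in 21 members in the wild type list (11.9%) and 20 in the knockout list (11.4%). The shares of all coding genes were 19.0% and 21.4%. The bodies of the members, with overlaps counted once, span 5.74 Mb, of which Il1rapl1 and Il1rapl2 take 2.65 Mb. There were 29 wild type hotspots inside them, 5.05 per Mb (exact Poisson interval 3.38 to 7.25), and 31 knockout hotspots, 5.40 per Mb (3.67 to 7.66). All coding gene bodies had 6.71 per Mb in the wild type list and 7.93 in the knockout list, and the autosomal members had 6.69 and 7.03. Both intervals of the autosomal members, 4.09 to 10.3 and 4.35 to 10.7, include the values of all genes.

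Of the hotspots inside members, 24 were shared, with a median log2 ratio of -0.06 (interval of the median -1.02 to 0.38), whereas the 5417 shared hotspots inside all coding genes had a median of -0.32. The log2 ratio was below 0 in 13 and above 0 in 11, beside 62.1% below 0 among the shared hotspots inside all coding genes. More than 2-fold lower in the knockout were 7 of the 24, beside 25.2% of all such hotspots, and more than 2-fold higher were 2, beside 7.44%. On the deposited strengths, which move every log2 ratio by -0.27, 16 were lower and 8 higher, beside 71.9% lower among all such hotspots. More than 2-fold lower were 8, beside 33.5%, and more than 2-fold higher was 1, beside 3.97%. The interval of the members' median includes the median of all genes.

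The 3 strongest wild type hotspots inside members were in Il1rapl2, Il1rapl1 and Il33. Il1rapl1 and Il1rapl2 encode the synaptic adhesion proteins named above and take 2.65 of the 5.74 Mb of member body. Il1rapl2 on X had the strongest of all, 3278 (3164 to 3394) in the wild type list and 2479 (2381 to 2579) in the knockout list (log2 -0.13, -0.24 to -0.03). Il1rapl1, also on X, had 1050 and 837 (log2 -0.06, -0.25 to 0.13). Il33, an alarmin of the interleukin 1 family on chromosome 19, had 1021 and 915 (log2 0.11, -0.08 to 0.30). These 3 differed little between the lists in relative strength.

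The receptor genes of interleukin 1 and interleukin 18 lie side by side on chromosome 1, and their hotspots did not move together. Il1r1, the signalling receptor of interleukin 1, had 722 in the wild type list and 929 in the knockout list (log2 0.63, 0.43 to 0.84). Il1r2, the decoy receptor, had 581 and 584 (log2 0.28, 0.04 to 0.52). Il18r1, a chain of the interleukin 18 receptor, had 1 hotspot of 402 and 320 (log2 -0.06, -0.37 to 0.25) and 1 of 210 and 86 (log2 -1.02, -1.56 to -0.49). Its neighbour Il18rap, the accessory chain, had 182 and 128 (log2 -0.24, -0.72 to 0.24). Neighbouring hotspots of 1 gene family thus ranged from higher to more than 2-fold lower in the knockout list.

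The largest decreases inside members were at 4 genes. Ccl21b, a chemokine gene on chromosome 4, had 722 and 197 (3.04-fold lower, log2 -1.60, -1.93 to -1.28). Il11, a cytokine of the interleukin 6 family on chromosome 7, had 457 and 127 (log2 -1.58, -1.99 to -1.18). Il1a, which encodes interleukin 1 alpha, had 863 and 272 (log2 -1.40, -1.68 to -1.12), and Il31ra, a chain of the interleukin 31 receptor, had 206 and 69 (log2 -1.31, -1.90 to -0.75). All 4 intervals lie below 0. Il22ra2, a soluble interleukin 22 binding protein, went from 119 to 48 and a hotspot of Il1rapl1 from 253 to 103, both slightly past 2-fold.

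The largest increases were a weak Il1rapl2 hotspot and one in Tnfrsf8. The Il1rapl2 hotspot had 37 (25.3 to 51.8) in the wild type list and 128 (107 to 152) in the knockout list (4.17-fold higher, log2 2.06, 1.31 to 2.86). It lies in the same gene as the strongest member hotspot, whose ratio was near 0. Tnfrsf8, which encodes CD30, a receptor of activated lymphocytes, had 53 and 99 (log2 1.17, 0.46 to 1.89), and was under 2-fold on the deposited strengths. Another Il1rapl2 hotspot had 81 and 118 (log2 0.81, 0.21 to 1.43).

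Some hotspots inside members were in 1 list only, and 82.8% of the wild type and 77.4% of the knockout hotspots inside members were shared, beside 81.6% and 68.8% inside all coding genes. In the wild type list these were in Ccr1l1, a chemokine receptor-like gene (156), Il13ra1 (59), Il1f6 (53), Il1rapl2 (50) and Il1r1 (42). The knockout list had 7 with strengths from 59 to 73, in Il1rapl1, Il1rap, Il2ra, Il33 and Il1rapl2. Il13ra1 thus had a body hotspot in the wild type list alone and a hotspot at its start in the knockout list alone.

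**Figure D4:**
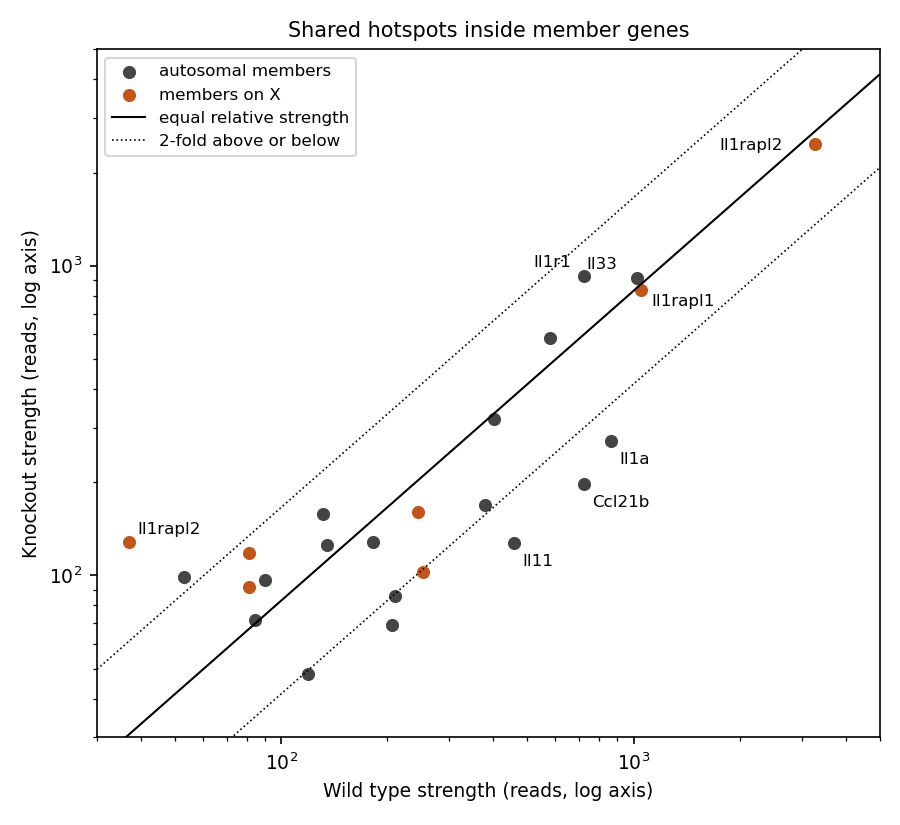
Strength in the knockout list against strength in the wild type list (reads, both axes log) for the 24 shared hotspots inside member genes; the solid line marks equal relative strength and the dotted lines 2-fold above and below it. Il1a, Ccl21b and Il11 lie below the lower dotted line, and the weak Il1rapl2 hotspot (37 and 128) lies farthest above the upper one.

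Many members lie in gene clusters, taken here as 3 or more members with gaps of at most 100 kb, a definition set after seeing the data. The 11 clusters held 50 members, of which 2 (4%) had a knockout hotspot at an end, the Tnfsf13 pair. Both genes of the pair had the same hotspot, of strength 32, which was nearer to Senp3 (216 bp) than to them (709 bp). Outside clusters, 19 of 126 members (15.1%) had a knockout hotspot at an end, beside 27.2% of all protein-coding genes. Clustered and other members were not matched for role or promoter CpG, so a link between clustering and this share was not tested. The cluster spans, 1731 kb in all, held 17 wild type and 15 knockout hotspots, 9.82 and 8.66 per Mb. Over the stretch between the first and last coding gene of each chromosome the lists had 5.25 and 8.59 per Mb. No wild type hotspot lay in 2 of the 11 clusters and no knockout hotspot in 4. The hotspot at the common end of the Tnfsf13 pair was centred outside the span of its cluster.

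On chromosome 11 a hotspot (chr11:83584747-83586885) between the chemokine genes of the Ccl3, Ccl4, Ccl5, Ccl6 and Ccl9 cluster, 2070 bp from Ccl6, had 1365 (1293 to 1440) in the wild type list and 607 (559 to 658) in the knockout list (log2 -0.90, -1.10 to -0.71). In the neighbouring cluster of Ccl2, Ccl7, Ccl11, Ccl12, Ccl8 and Ccl1, a hotspot 4865 bp from Ccl8 had 633 and 376 (log2 -0.48, -0.75 to -0.22). Both were lower in the knockout list, and no chemokine gene of either cluster had a knockout hotspot at an end. The cluster of Il4, Il13 and Il5, the cytokines of type 2 immunity, had a shared hotspot of 223 and 153 (log2 -0.27, -0.72 to 0.16) and 2 knockout-only ones of 43 and 55. The cluster of Il10, Il19, Il20 and Il24 had 1 shared hotspot, 107 and 194, higher in the knockout list (log2 1.13, 0.63 to 1.64).

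The chemokine genes Ccl21a, Ccl21b, Ccl21d, Ccl27a, Ccl27b and the receptor genes Il11ra1 and Il11ra2 lie close together on chromosome 4. The chemokine genes are paralogs of each other, and so are the receptor genes. The sequences of these genes were not compared here, and their annotated lengths differ, from 1131 bp in Ccl21d to 83706 bp in Ccl21b. The sources used here do not say how reads that fit several places were assigned, so strengths there are uncertain. From 100 kb before Il11ra1 to 100 kb after Ccl21a the wild type list had 7 hotspots and the knockout list 8. In this stretch 3 hotspots had nearly the same pair of strengths: 739 and 206 at 69372 bp from Il11ra1, 722 and 197 inside Ccl21b, and 704 and 181 at 8988 bp from Il11ra2. Their log2 ratios were -1.57, -1.60 and -1.69. The 4 other shared ones also resembled each other, with 177 to 205 in the wild type list and 101 to 118 in the knockout list. Whether the Ccl21b decrease belongs to 1 place or to several was not tested.

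Promoter sequences were matched for 137 of 176 members and 17273 of 21519 coding genes, as the 250 bases before and 50 after the start. The median ratio of observed to expected CpG was 0.27 in members and 0.59 in all promoters. With a ratio of at least 0.6 taken as CpG-rich, 25 members (18.2%) and 49.0% of all promoters were CpG-rich. By role the median was lowest in chemokine receptors (0.19) and interleukin ligands (0.20), 0.26 in chemokines, 0.29 in Tnfsf ligands, 0.30 in interleukin receptors, 0.44 in Tnfrsf receptors and highest in Tnfaip genes (0.75). The roles with few or no knockout hotspots at an end included those with the lowest ratios, but the order did not hold throughout. Tnfrsf receptors had a higher ratio than Tnfsf ligands and interleukin receptors, but a lower share with a knockout hotspot (10%, against 16.7% and 22.2%). A link between ratio and share across roles was not tested.

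The hotspots were then counted within 1 kb of the start whose sequence was scored, which for 10 members is over 1 kb from the outer end of the gene. One of these is Il9r, with 5004 bp between the scored start and the end that had its hotspot, so Il9r has no hotspot in this count. Of the 25 CpG-rich members, 10 had a knockout hotspot at the start (40%, 21.1 to 61.3), and of all CpG-rich promoters 46.7%. Of the 112 CpG-poor members, Il23r and Il2 had one (1.79%, 0.217 to 6.30), against 9.69% of all CpG-poor promoters. CpG-rich members with no knockout hotspot at the start included the chemokine genes Cxcl12, Cxcl14 and Ccl25, the receptor gene Cxcr4, and Tnfrsf21 and Tnfaip2. Within the CpG-rich class, the members' share was close to that of all genes, and its interval includes it. Within the CpG-poor class, which holds most members, their share was lower, and its interval lies below the 9.69% of all genes. The CpG threshold was chosen after the data had been seen.

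**Figure D5:**
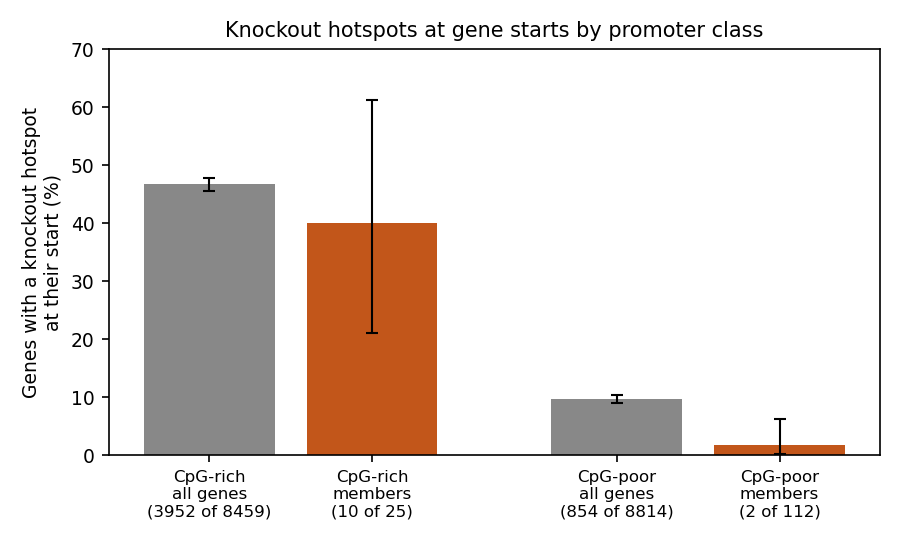
Percent of genes with a knockout list hotspot at the annotated start, in CpG-rich and CpG-poor promoters, for all coding genes (grey) and members (orange); error bars are exact binomial 95% intervals. Members stand at 40% beside 46.7% in the CpG-rich class and at 1.79% beside 9.69% in the CpG-poor class.

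Short motifs were searched on both strands of the same windows of 300 bases, as a description of letters only. GGGNNTTTC, the first 9 letters of an NF-kB site, was in 20 members (14.6%) and 4.37% of all promoters. The letters TATAAA of a TATA box were in 19.0% of members and 13.4% of all promoters. The letters CCAAT were in 27.7% of members and 39.6% of all, and those of a GC box, GGGCGG, in 32.1% and 46.9%. GCGCNTGCG, the first 9 letters of an NRF1 site, was in 2.19% of members and 9.12% of all. The window of Tnfaip3 holds the letters of the TATA box, the GC box and the NF-kB site, and no match was found there to the other 2. Of the 20 members with the NF-kB letters, a knockout hotspot at the start was found for Tnfaip3, Il4ra and Il23r, and not for others such as Cxcl1, Cxcl2, Il6 and Il18. The letters were in 25% of the 12 members with a knockout hotspot at the start and in 13.6% of the 125 without. Among all genes they were in 3.77% of those with such a hotspot and 4.60% of those without.

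Genes that act downstream of these receptors were compared by 2 lists. Of 47 NF-kB signalling genes, 25 had a knockout hotspot at an end (53.2%, 38.1 to 67.9), 23 of them a knockout-only one, and of 26 JAK-STAT genes 11 had one (42.3%, 23.4 to 63.1), all knockout-only. In the wild type list the counts were 3 of 47 and 0 of 26, a count of 0 that allows up to 11.5%, beside 2.00% of all coding genes. The 3 genes, Tab3, Irak1 and Ikbkg, are all on X. There 8.20% of coding genes had a wild type hotspot at an end, beside 1.71% on the autosomes. The 4 strongest of the first list were Tab3 on X (73 and 1084, log2 4.16), an adaptor of the TAK1 kinase, Nfkbiz (400), an atypical inhibitor of NF-kB, Tab2 (351), a relative of Tab3, and Traf3 (344), an adaptor of TNF receptors. Those of the second were Socs5 (378), a suppressor of cytokine signalling, Jak2 (280), a receptor kinase, Ptpn2 (157), a phosphatase, and, with equal strengths, Stat3 and Socs1 (141). The signalling genes thus stood above the background of 27.2% and the ligand and receptor genes below it. The intervals of the JAK-STAT genes, the interleukin receptors and the Tnfsf and Tnfrsf genes include this background. Of the NF-kB genes with a promoter entry, 19 of 28 CpG-rich ones (67.9%, 47.6 to 84.1) and 5 of 11 CpG-poor ones (45.5%, 16.7 to 76.6) had a knockout hotspot at the scored start. Of the JAK-STAT genes, 3 of 10 CpG-rich (30%, 6.67 to 65.2) and 2 of 8 CpG-poor ones (25%, 3.19 to 65.1) had one. Of all coding genes with a promoter entry, 46.7% of the CpG-rich and 9.69% of the CpG-poor ones had one. Both JAK-STAT intervals include the share of their class, and the CpG-rich JAK-STAT share lies below it.

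The 6 members on X were Il13ra1, Il13ra2, Il1rapl1, Il1rapl2, Il2rg and Cxcr3, and Il13ra1 alone of them had a knockout hotspot at an end. Among all coding genes on X, 47.7% had one, and on the autosomes 26.3%. The number of members on X is too small to set their share apart from either value (16.7%, 0.421 to 64.1). In all, 136 of the 176 members (77.3%) had no hotspot at an end or inside in either list, beside 56.6% of all coding genes. The median distance from a member to the nearest hotspot was 47332 bp in the wild type list and 21595 bp in the knockout list, beside 46084 and 8172 bp for all coding genes.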

How the data were processed

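Whole testis of adult males was assayed by DMC1-SSDS, and 1 deposited hotspot list per genotype was used. The sources used here do not say whether the authors pooled the 2 samples of a genotype. H3K4me3 and input libraries (8 samples, at an age of 13 days) were not analysed here. Per the submitters' processing notes, MACS2, BWA, Bowtie2 and CASAVA were used with the build mm10; roles and versions are not given there. Per the file headers, the deposited read count is the number of signal reads in a hotspot. The deposited background is an estimate in reads, treated as a score. The authors' strength is a signal equal to read count minus background in 100% of hotspots, and the deposited percent strength is its share of the summed strength of the list. Chromosome Y was left out by the authors, per the names of the lists. Whether start positions count from 0 or 1 is not stated.

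From these lists, hotspots overlapping by at least 1 bp were paired, all of them 1 to 1, which gave 11487 shared hotspots. Genes were from RefSeq GRCm38.p6, the assembly of mm10, and strand and promoters from the RefSeq promoter table (the start nearest the gene's outer 5′ end). With 1 list per genotype no test was made. Shares have exact binomial (Clopper-Pearson) 95% intervals, strengths exact Poisson intervals on read counts, and log2 ratios an interval joining the outer bounds of both lists. A count of 0 allows 3 counts of the total. All intervals cover counting error only, and reads without molecular identifiers are not independent molecules. Total library depth is unknown here.

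Members, lists and rules were chosen with earlier results of these data known. The naming rule took every member with a hotspot at an end, the 8 strongest body hotspots of each list, the 4 highest and 4 lowest log2 ratios, every hotspot within 500 kb of Tnfaip3 and the 4 strongest of each signalling list. Clusters and the paralogs on chromosome 4 were named after their values were seen. Alternatives were windows of 500 bp and 2 kb, a strength of at least 100, a knockout list reduced to the wild type size, an overlap of 50%, the start only, and other scales. The steps were tested on simulated data with Python 3.11.15, pandas 2.3.3, numpy 2.4.6 and SciPy 1.17.1.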

Additional observations from a re-analysis of the deposited data

How the results depend on the processing

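The number of members with a knockout hotspot at an end depended on how weak a hotspot was counted. With a strength of at least 100 the 21 members became 8 and the 17 knockout-only ones 5, and with the knockout list reduced to the size of the wild type list they became 9 and 6. In percent, members with a knockout hotspot were 4.55% and 5.11% under these settings, beside 13.4% and 16.0% of all coding genes, and with a knockout-only one 2.84% and 3.41%, beside 11.9% and 14.7%. The median strength at member ends, 76.5, became 163 and 137 under these settings, and the 31 knockout hotspots inside bodies became 20 with a strength of at least 100. Counting the annotated start only gave 13 members, 11 knockout-only ones and 2 in the wild type list, since 4 members at a far end and 4 of unknown strand drop out of the 21. Of the 137 members with a promoter entry these are 9.49% and 8.03%, beside 26.2% and 25.3% of all coding genes with one. The 4 members of the wild type list became 2 with a window of 500 bp and 7 with 2 kb. In all, 12 values were labelled as moved and 23 as the same, but several of those labelled the same also changed. The 21 members became 15 with a window of 500 bp (8.52%, beside 23.8% of all coding genes). The 31 knockout hotspots inside bodies became 44 with gene ends included and 21 with the reduced knockout list. The Tnfaip3 log2 ratio and the median log2 ratio inside bodies kept their sign under the settings run. The Tnfaip3 log2 ratio was 4.75 to 4.83 on other scales, and the median inside bodies was -0.33 on deposited strengths. No paired analysis was possible because each genotype has 1 list whose columns carry no replicate number, and for the same reason leaving out a replicate could not be run. Counting intervals are wide for weak hotspots, such as those of Tnfrsf11a and Tnfsf13, which overlap.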
